A study of Homo sapiens with 12 samples.

Results

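The ribosomal protein genes were taken as every gene symbol that begins with RPL or RPS, leaving out the RPS6K kinases. This gave 92 of the 33514 symbols in the count tables. Of these, 87 carry the name of a ribosomal protein, and the other 5 are an antisense RNA (RPL34-AS1), read-through transcripts (RPL17-C18orf32, RPL36A-HNRNPH2 and RPS10-NUDT3) and RPS19BP1, a protein that binds RPS19. Single cells of SCC1, SCC6 and SCC25, 3 established human lines from squamous cell carcinomas of the head and neck, were sequenced. Daily treatment for 5 days was with 100 nM cetuximab, an antibody against the growth factor receptor EGFR, or with phosphate-buffered saline (PBS) in the controls. Each of the 6 groups had 2 replicates, which made 12 libraries. The comparison asks what cetuximab changes early, before resistance has arisen. The labels do not say whether the replicates were separate cultures, so the p-values measure only the spread between these libraries.

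A ribosome is built from a small subunit, whose proteins carry RPS names, and a large subunit, whose proteins carry RPL names, around ribosomal RNA. Most of these proteins are present in 1 copy per ribosome. Their mRNAs are known for a 5′ terminal oligopyrimidine (TOP) tract, a C at the first base followed by an unbroken run of C and T, through which growth signals control their translation. Several of the genes have a paralog, a further gene for a closely related protein, often with a narrower pattern of expression.

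The libraries held 961 to 2854 cells, where the protocol aimed at 5000, and 57057402 to 112170073 unique molecular identifiers (UMIs, counted molecules). The median cell had 24079 to 54864 UMIs, and the lowest median belonged to replicate 1 of SCC6 with cetuximab. Any pair of libraries shared 1 to 13 cell barcodes. The squamous keratin KRT17 was counted in every library, at 440 to 7607 counts per 1000000 UMIs (CPM), and EGFR at 70.9 to 132 CPM. The basal keratins KRT5 and KRT14 were nearly absent from SCC6, at 0.967 to 4.57 and 0.379 to 2.58 CPM, and were at 370 CPM or more in the libraries of the other lines. The 12 markers of other cell types summed to 1.06 to 36.5 CPM in the PBS libraries and 17.6 to 73.4 CPM in the cetuximab libraries, and were higher with cetuximab in 6 of 6 pairs, mostly through the matrix genes COL1A1, COL1A2 and LUM. The defining markers of white blood cells, endothelium, liver and red cells (among them PTPRC, CD3E, LYZ, PECAM1, VWF, ALB and HBB) stayed between 0 and 0.296 CPM each. The part of these markers in the results was not tested.

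Ribosomal protein mRNA took a smaller share of all UMIs with cetuximab in each line. In SCC1 the 87 genes held 21.9% and 23.3% of the UMIs of the PBS libraries and 17.4% and 19.2% of those of the cetuximab libraries, replicate 1 first. SCC6 went from 34.3% and 28.0% to 28.6% and 23.1%. In SCC25 the PBS libraries stood at 26.4% and 22.1% and the cetuximab libraries at 20.5% and 20.2%. The groups did not overlap in SCC1 or SCC25, while in SCC6 replicate 1 with cetuximab lay above replicate 2 with PBS. The mean share was 22.6% ± 1.03 against 18.3% ± 1.29 in SCC1, 31.1% ± 4.43 against 25.9% ± 3.85 in SCC6 and 24.3% ± 3.00 against 20.3% ± 0.223 in SCC25 (SD, n = 2 each). The difference of means was -4.31, -5.27 and -3.94 percentage points against a pooled SD of 1.17, 4.15 and 2.13, and no p is given for a share summed over the genes. Every same-numbered pair was lower with cetuximab, and the smallest of the 6 differences, -1.98 points, was that of replicate 2 of SCC25. A share is relative to the other RNA, so less ribosomal protein mRNA and more of the other mRNA cannot be told apart.

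**Figure D1:**
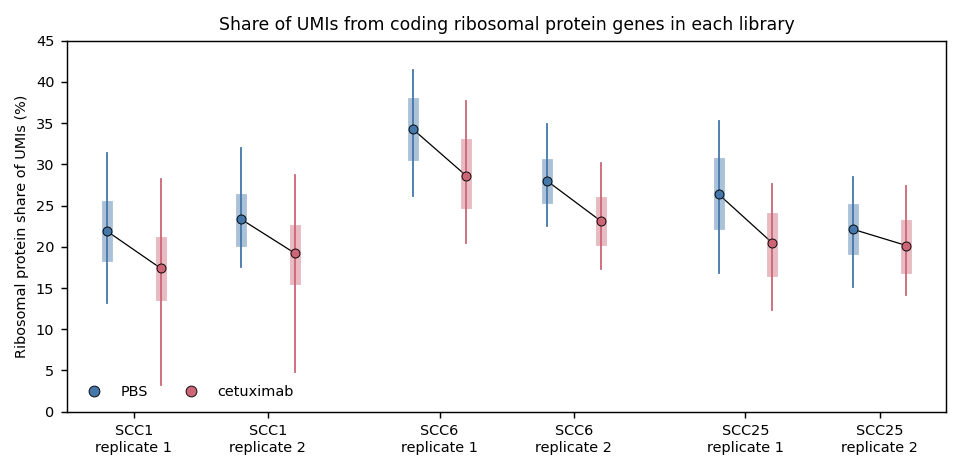
Share of UMIs (%, vertical axis) that came from the 87 coding ribosomal protein genes, for PBS (blue) and cetuximab (red) libraries of each line and replicate number. Points give the share of the whole library, joined within a replicate number, thick bars the quartiles of the single cells and thin lines their 5th to 95th percentiles; all 6 joined pairs fall with cetuximab, and the lower tails of the SCC1 cetuximab libraries reach 3.24% and 4.79%.

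The fall was present across the bulk of the cells. The median cell of SCC1 had a ribosomal protein share of 21.6% and 23.1% with PBS and 16.8% and 18.6% with cetuximab. In SCC6 the medians were 34.5% and 27.9% with PBS and 28.8% and 23.1% with cetuximab, and in SCC25 26.4% and 22.3% against 20.4% and 19.95%. Of the cetuximab cells of SCC1, 80.3% (95% exact binomial interval 77.7 to 82.8) and 79.9% (77.6 to 81.9) lay below the median of the PBS library of the same number. The same count gave 85.7% (84.4 to 87.0) and 89.6% (88.0 to 91.0) in SCC6, and 90.8% (89.5 to 92.1) and 71.9% (69.9 to 73.8) in SCC25. These intervals cover counting error only. Replicate 2 of SCC25 was the library with the least shift.

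The cells were also divided by cycling genes. The summed level of 24 proliferation genes was lower with cetuximab in 6 of 6 pairs, and in SCC1 it went from 2830 and 3422 CPM to 1101 and 2182 CPM. Among cells without a UMI of the cycling genes MKI67, TOP2A, CENPF, CDK1 and BIRC5 (96 to 782 cells per library), the median ribosomal protein share of SCC1 was 24.0% and 25.7% with PBS and 16.9% and 19.5% with cetuximab. In such cells of SCC6 it was 35.8% and 29.9% against 30.8% and 24.0%, and in SCC25 23.6% and 21.3% against 17.6% and 19.4%. Among cells with at least 1 such UMI the medians were 21.5% and 23.0% against 16.8% and 18.4% in SCC1, 34.3% and 27.8% against 28.5% and 23.1% in SCC6, and 26.5% and 22.5% against 21.0% and 20.3% in SCC25. Every pair was lower with cetuximab in both kinds of cell. In the blocked fit described below, sums over the cells without a cycling UMI called 67 of 85 members lower across lines (3.46% of all genes), and sums over the cells with one called 60 of 87 (2.81%). The cells without a cycling UMI include shallow cells in which a low gene was missed.

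For the genes one by one, UMIs were summed per library, and 87 of the 92 members passed the filter on low counts, among 17897 genes tested. The other 5 (RPL10L, RPS4Y2, RPL17-C18orf32, RPL34-AS1 and RPL36A-HNRNPH2) had too few UMIs. Values below are CPM scaled by the trimmed mean of M-values (TMM), log2 changes are cetuximab minus PBS, and FDR is the Benjamini-Hochberg adjusted p of edgeR's quasi-likelihood test over all 17897 genes. The median log2 change of the members was -0.35 in SCC1, -0.47 in SCC6, -0.25 in SCC25 and -0.35 across the lines, where the median of all genes tested was 0.00, 0.00, -0.01 and 0.01. The fitted change was negative for 85, 86, 85 and 87 of the 87. When libraries were scaled to their totals alone, the median of all genes moved to 0.11 across the lines and to 0.23 in SCC6, and the members' medians to -0.25 and -0.23.

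No member passed an FDR of 0.05 within a single line when the replicates were treated as independent, where 0.0168% of all genes were called in SCC1, 3.81% in SCC6 and 0.0% in SCC25. At an unadjusted p under 0.05 the fit gave 10, 39 and 2 of the 87 members, and 1570, 3561 and 1041 of the 17897 genes. DESeq2 called 1, 8 and 0 members, where it called 274, 1671 and 101 of all genes. In DESeq2 the share of members called was no larger than that of all genes in any line. Across the 3 lines 9 members were called, all lower, against a background of 1.13% of all genes called lower. They were the small subunit genes RPS2, RPS3, RPS14, RPS16, RPS23 and RPSA and the large subunit genes RPL3L, RPL23A and RPLP0. Leaving out 1 library at a time brought this count to 1 to 8, with 8 only without replicate 2 of SCC25 with PBS, and to 1 without each of 7 libraries. In those runs 202 to 596 of all genes were called in either direction.

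Libraries with the same replicate number deviated together in every line, so a second fit took the pairing into account with a term for the replicate number within each line. This blocked fit called 15 members in SCC1, 71 in SCC6, 0 in SCC25 and 71 across the lines, all of them lower. The share of all genes called lower was 1.99%, 10.1%, 0.207% and 5.55%. With 1 replicate term shared by the lines instead, 12 members were called lower in SCC6 (6.37% of all genes) and 55 across lines (5.19%). Leaving out 1 library brought the 55 to 5 to 42, with 5 without SCC1 cetuximab replicate 1, SCC1 PBS replicate 2 or SCC6 cetuximab replicate 2, and the 12 to 0 to 35, with 35 without SCC6 PBS replicate 2. In those runs 739 to 2258 of all genes were called across lines and 370 to 3241 in SCC6, in either direction. In SCC25 the lowest FDR of a member was 0.0598, for RPS2. There 49 of the 87 members had an unadjusted p under 0.05, and 2720 of the 17897 genes tested. All 6 pairs were lower for 80 of the 87 members, against 10.6% of all genes. Both cetuximab libraries lay below both PBS libraries for 54 members in SCC1, 54 in SCC6 and 49 in SCC25, where 20.4%, 21.4% and 15.3% of all genes did so, and in all 3 lines for 29 members, against 3.25% of all genes.

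The size of the change did not pass a test of difference between lines for any member. The interaction of line and treatment called 0 of 87 members in either fit. Without the block 0.0% of all genes were called. With the block, 1.29% of all genes were called. There 5 of the 87 members and 3289 of the 17897 genes had an unadjusted p under 0.05. Without it none of the members did, and 1318 of the genes did. In DESeq2 the interaction also called none of the members, where it called 276 of the 17897 genes. The lowest blocked values among the members of at least 50 CPM were those of RPL10A (FDR 0.228) and RPL22L1 (FDR 0.238).

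**Figure D2:**
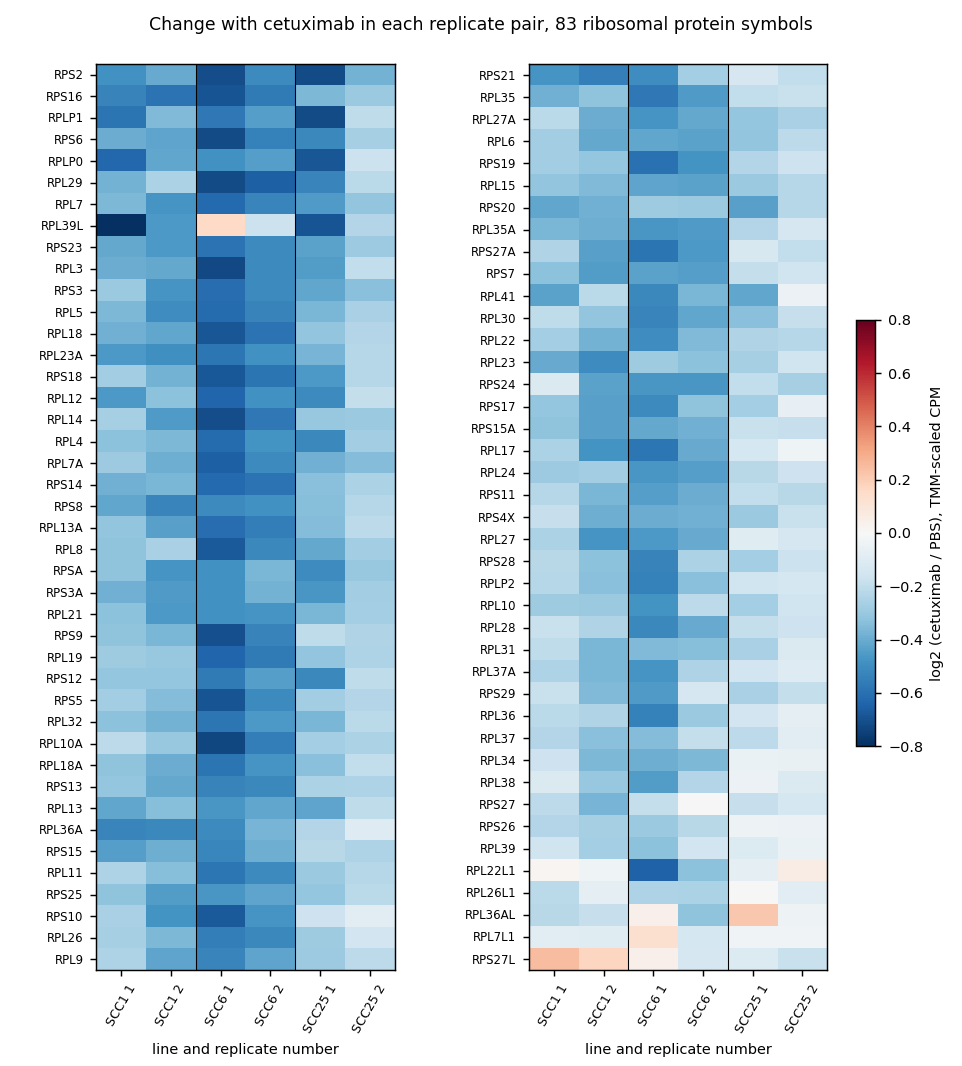
Log2 change with cetuximab (colour, blue lower, red higher, cut at -0.8 and 0.8) in each line and replicate number (columns) for 83 coding members of at least 50 CPM (rows, ordered by the blocked change across lines). Most rows are blue in all 6 columns, and values above 0 occur only in RPS27L (3 pairs), RPL22L1 and RPL36AL (2 pairs each) and RPL39L and RPL7L1 (1 pair each); RPL39L in SCC1 replicate 1 reached -1.40, past the end of the colour scale.

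The small subunit gene RPS2, which lies near the channel through which mRNA enters, showed the largest fall among members of at least 50 CPM. Its levels in SCC1 were 4760 and 5247 CPM with PBS and 3402 and 3962 with cetuximab. SCC6 held 17327 and 12277 CPM with PBS and 10590 and 8636 with cetuximab, and SCC25 14791 and 10557 against 9000 and 8134. The groups were separate in all 3 lines. The change across lines was -0.54 ± 0.12 (SE) with an FDR of 0.0339, and -0.53 ± 0.07 with an FDR of 0.00760 in the blocked fit.

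RPS16, a protein of the small subunit's head, went from 1640 and 1756 to 1132 and 1167 CPM in SCC1. In SCC6 it went from 8737 and 6121 to 5425 and 4130 CPM, and in SCC25 from 3815 and 3097 to 2973 and 2526 CPM. No cetuximab library overlapped the PBS libraries of its line. The change across lines was -0.51 ± 0.12 (FDR 0.0423, blocked 0.00896). RPLP0, RPSA and RPL3L, described with their groups, were also called in both fits, as were RPS23 (-0.45, FDR 0.0292), RPS3 (-0.45, FDR 0.0480), RPS14 (-0.43, FDR 0.0394) and RPL23A (-0.44, FDR 0.0420), all small or large subunit proteins that were lower in 6 of 6 pairs.

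The stalk of the large subunit, the arm that recruits translation factors, is made of RPLP0, RPLP1 and RPLP2. RPLP0, its base, fell by 0.47 ± 0.12 on the log2 scale across lines (FDR 0.0444). Its levels were 2469 and 2437 CPM with PBS and 1595 and 1831 with cetuximab in SCC1, 3789 and 2785 against 2707 and 2051 in SCC6, and 4251 and 3381 against 2649 and 3005 in SCC25. RPLP1 had a change of -0.49 ± 0.13 (FDR 0.0621, blocked 0.0130), and RPLP2 of -0.30 ± 0.13 (FDR 0.210, blocked 0.0367). All 3 stalk genes were lower in 6 of 6 pairs, and the difference between them was not tested.

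RPS6, the small subunit protein that S6 kinase phosphorylates downstream of growth signals, changed by -0.47 ± 0.12 across lines (FDR 0.0565, blocked 0.0111). In SCC6 it stood at 4620 and 3666 CPM with PBS and 2818 and 2524 with cetuximab, in SCC1 at 2333 and 3187 against 1775 and 2382, and in SCC25 at 2080 and 2190 against 1456 and 1825. The groups overlapped in SCC1, where replicate 2 was higher under both treatments. RPL5 and RPL11, which bind 5S ribosomal RNA and, outside the ribosome, the p53 regulator MDM2, changed by -0.44 ± 0.12 (FDR 0.0549, blocked 0.0115) and -0.37 ± 0.11 (FDR 0.0762, blocked 0.0185). RPSA, also known as a laminin receptor, changed by -0.41 ± 0.10 (FDR 0.0449, blocked 0.0111). RPS27A, made as a fusion with ubiquitin, RPL41, the shortest ribosomal protein, and RPS4X, encoded on the X chromosome, changed by -0.35, -0.34 and -0.31, with a blocked FDR of 0.0296, 0.0303 and 0.0239 and an FDR of 0.122 to 0.280 without the block.

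The lowest changes in each line, without the block, were taken among members with a mean of at least 50 CPM in the line itself. In SCC6 they were those of RPL29, RPL14, RPL10A and RPL18, all large subunit proteins. Their log2 changes without the block were -0.69, -0.65, -0.65 and -0.64, with blocked FDRs of 0.00500, 0.00518, 0.00452 and 0.00361. In SCC1, where RPL39L lay below that limit, they were RPS16, RPL36A, RPLP0 and RPS21, at -0.56, -0.52, -0.52 and -0.51, with blocked FDRs of 0.0161, 0.0343, 0.0630 and 0.0302. In SCC25 they were RPS2, RPL39L, RPLP1 and RPLP0, at -0.57, -0.49, -0.48 and -0.43, and none passed. The 51 large subunit genes tested had a median change of -0.35 across lines in the blocked fit and 42 of them were called lower. The 33 small subunit genes tested had a median of -0.35, and 29 were called lower. In the same fit 5.55% of all genes were called lower across lines.

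The 5 members of at least 50 CPM with the smallest change across lines were all paralogs. Of the 8 pairs examined, the second gene reached 50 CPM in 6. Among these, RPL39L went the other way, with a blocked change of -0.46 across lines that did not pass. The blocked median of the members tested was -0.35. Across lines the blocked change was 0.01 ± 0.08 for RPS27L, -0.04 ± 0.07 for RPL7L1, -0.09 ± 0.08 for RPL36AL, -0.15 ± 0.07 for RPL26L1 and -0.17 ± 0.10 for RPL22L1, and none of these passed (FDR 0.196 to 0.976). RPL7L1 is a relative of RPL7 thought to act in ribosome assembly rather than in the finished ribosome. The first genes of those pairs changed by -0.18 (RPS27), -0.46 (RPL7), -0.38 (RPL36A), -0.35 (RPL26) and -0.33 (RPL22), and all but RPS27 passed in the blocked fit (FDR 0.00896 to 0.0236). Scaling to library totals turned the sign of the unblocked changes of RPS27L, RPL36AL and RPL7L1, to 0.10, 0.01 and 0.05. The difference between the genes of a pair, and the part of their expression level in it, was not tested.

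The annotated start sites of these genes are shown because the TOP tract is the feature that the mRNAs are known to share. Each line gives 10 bases before and 20 bases from the start that RefSeq annotates on GRCh38.p14, read 5′ to 3′ on the gene's strand, with the longest unbroken run of C and T in the window in capitals. RPL26L1 has 2 annotated starts, and both are given.
RPS6 (chr9:19380217-19380246, minus strand): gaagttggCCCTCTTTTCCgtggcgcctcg
RPLP1 (chr15:69452808-69452837, plus strand): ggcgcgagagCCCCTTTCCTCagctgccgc
RPS16 (chr19:39435930-39435959, minus strand): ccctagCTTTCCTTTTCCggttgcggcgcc
RPL22 (chr1:6199576-6199605, minus strand): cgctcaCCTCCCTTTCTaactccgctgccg
RPL22L1 (chr3:170870176-170870205, minus strand): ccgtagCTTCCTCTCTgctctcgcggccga
RPS27 (chr1:153990752-153990781, plus strand): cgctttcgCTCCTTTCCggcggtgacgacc
RPS27L (chr15:63157458-63157487, minus strand): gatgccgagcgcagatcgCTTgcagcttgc
RPL36A (chrX:101391001-101391030, plus strand): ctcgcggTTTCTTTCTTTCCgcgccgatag
RPL36AL (chr14:49620607-49620636, minus strand): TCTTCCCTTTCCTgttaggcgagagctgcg
RPL26 (chr17:8383174-8383203, minus strand): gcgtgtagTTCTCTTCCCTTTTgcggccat
RPL26L1 (chr5:172958719-172958748, plus strand): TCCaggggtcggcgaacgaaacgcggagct
RPL26L1 (chr5:172958870-172958899, plus strand): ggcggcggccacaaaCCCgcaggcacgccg
RPL7L1 (chr6:42879606-42879635, plus strand): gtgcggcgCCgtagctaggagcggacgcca
At its annotated start, RPS27L had no C followed by such a run, and the same was true of RPL7L1 and of both starts of RPL26L1, where the longest run in the window was 2 to 3 bases. RPL36AL had a run of 13 bases that began before the start and reached 3 bases into the transcript. RPL22L1 had a tract of 6 bases from its start, against 7 in RPL22. Outside the windows shown, RPL39 had a tract of 19 bases and one of the smallest changes of the common genes. RPL10A, among the lowest changes in SCC6, had no such tract at its annotated start. Whether the tract goes with the size of the change was not tested.

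A start was found in the RefSeq table for 70 of the 87 coding members, with 86 starts in all. A C at the start base followed by enough C and T to make a tract of 5 or more bases was found at 48 of these 86 starts (55.8%), against 1429 of the 35116 starts of all genes in the table (4.1%). Among the paralogs of the pairs it was found at 1 of 7 starts. The letters CTTT, on the transcript's strand anywhere in the same window and overlapping the tract in part, were found at 50 of the 86 starts (58.1%) and at 12.5% of all starts. These are letters at annotated starts, and cells can begin transcripts at other bases.

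RPS27L, a p53 target gene, was the member with the least change. In SCC1 it went from 32.0 to 37.9 CPM and from 42.4 to 47.8 CPM in the 2 pairs, a difference that did not pass (blocked FDR 0.386). In SCC6 it went from 98.9 to 102 CPM and from 163 to 149 CPM, and in SCC25 from 132 to 122 CPM and from 208 to 184 CPM. The groups overlapped in each line. Its partner RPS27 was lower in 6 of 6 pairs, at 2670 and 2771 CPM with PBS and 2311 and 2139 with cetuximab in SCC1, 3894 and 2342 against 3409 and 2333 in SCC6, and 3015 and 2370 against 2650 and 2153 in SCC25.

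RPL22L1 passed in SCC6 alone, and only with the block. It stood at 156 and 181 CPM with PBS and 158 and 177 with cetuximab in SCC1, and at 161 and 140 against 153 and 146 in SCC25. In SCC6 it went from 407 and 447 to 260 and 356 CPM, a change of -0.49 ± 0.12 that passed in the blocked fit (FDR 0.0280) but not without the block (FDR 0.224). RPL22 changed by -0.43 ± 0.10 in SCC6 (blocked FDR 0.0207). The difference of the RPL22L1 change between lines did not pass, with a blocked interaction FDR of 0.238.

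RPL39L is a paralog of RPL39 best known from male germ cells. Its levels were 13.9 and 14.0 CPM with PBS and 5.27 and 10.2 with cetuximab in SCC1, and 274 and 187 against 170 and 158 in SCC25. In SCC6 it was at 109 and 113 CPM with PBS and 122 and 100 with cetuximab. The changes were -0.92 ± 0.23, -0.46 ± 0.22 and -0.01 ± 0.22 in SCC1, SCC25 and SCC6 in the blocked fit (FDR 0.0617, 0.365 and 1.00), and none passed. RPL39 itself had one of the smallest changes of the common genes, -0.18 ± 0.07 across lines (blocked FDR 0.106).

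**Figure D3:**
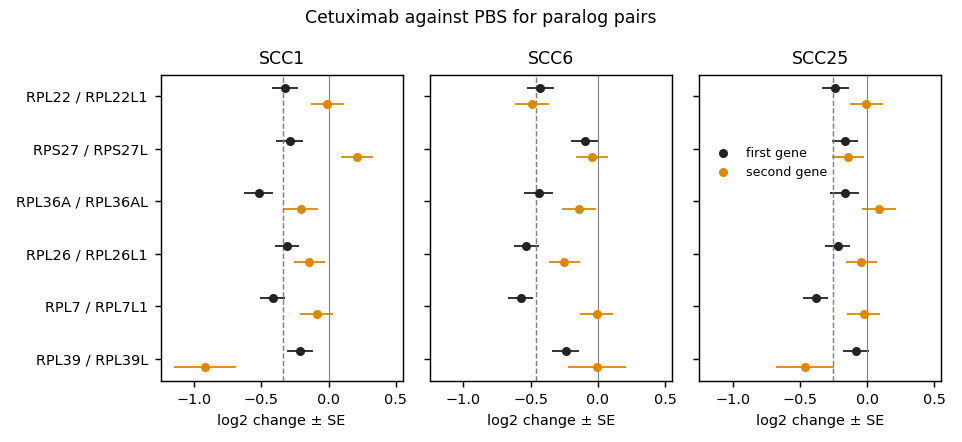
Log2 change with cetuximab (horizontal axis, blocked fit, bars are SE) for both genes of 6 paralog pairs in each line, the first gene in black and the second in orange. The dashed line is the median of 83 members of at least 50 CPM and the solid line no change; RPS27L, RPL7L1, RPL36AL and RPL26L1 lie to the right of their partners in all 3 lines, and RPL39L lies left of RPL39 in SCC1 and SCC25.

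The remaining paralogs were nearly silent. RPL3L, a relative of RPL3 known from heart and skeletal muscle, had 339 UMIs in all 12 libraries. It was counted 34 and 57 times with PBS and 5 and 14 times with cetuximab in SCC1, and 91 and 73 times against 22 and 34 times in SCC25. In SCC6 it had 3 and 6 UMIs with PBS and 0 with cetuximab, where 0 allows up to 3 UMIs per library, so no fold is given. The log2 change was -2.14 ± 0.50 in SCC1 and -1.63 ± 0.45 in SCC25 (FDR 0.231 and 0.589, blocked 0.0486 and 0.135), and RPL3L passed across lines in both fits (FDR 0.0158 and 0.0156). How reads shared with RPL3 were assigned is not given in the sources used here, and the counts are small. RPL10L, a relative of RPL10 known from testis, had 30 UMIs, all in the 4 SCC1 libraries.

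To ask which genes left the common fall, the same libraries were rescaled to the total of the ribosomal protein genes. Without the block 1 of 87 members was called across lines, RPL3L, lower, against 23.3% of all genes called in either direction. In the blocked fit 8 were called, 7 of them higher and 1 lower, where 44.4% of all genes were called higher and 1.0% lower. The 7 were RPS27L (0.38 ± 0.09, FDR 0.0105), RPL7L1 (0.34 ± 0.08, FDR 0.0105), RPL36AL (0.29 ± 0.09, FDR 0.0248), RPL26L1 (0.23 ± 0.07, FDR 0.0219), RPL39 (0.20 ± 0.05, FDR 0.0170), RPS26 (0.19 ± 0.06, FDR 0.0246) and RPL38 (0.17 ± 0.06, FDR 0.0425). So 4 of the 7 were second genes of the pairs, and RPL39, RPS26 and RPL38 were ribosomal proteins outside that group. RPS2 lay at the other end, at -0.16 ± 0.06 (FDR 0.0539).

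RPS26, a small subunit protein near the exit of the mRNA, went from 888 and 852 to 755 and 710 CPM in SCC1 and from 2197 and 1592 to 1788 and 1365 CPM in SCC6. In SCC25 it was 1123 and 822 CPM with PBS and 1094 and 797 with cetuximab, a change of -0.04 ± 0.09 in the blocked fit. Over the 83 members of at least 50 CPM, the blocked change across lines ran with the mean level (Spearman's rho -0.39 across genes, more of a fall at higher CPM), which describes these genes only. Genes share libraries and are not replicates.

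Some members differed between the replicate numbers. In a comparison added after the values were seen, with 1 replicate term shared by the lines, 23 of 87 members differed between replicate 2 and replicate 1, 12 higher and 11 lower, against 13.8% and 12.8% of all genes. The share of members called was near that of all genes. RPL7 was 2.64-fold higher in replicate 2 (log2 1.40 ± 0.12, FDR 0.000179), RPS24 2.61-fold (1.38 ± 0.11, FDR 0.000149), RPL21 2.51-fold (1.33 ± 0.10, FDR 0.000134), RPL26 1.88-fold (0.91 ± 0.13, FDR 0.00112) and RPS3A 1.86-fold (0.89 ± 0.12, FDR 0.000814). All 5 were higher in replicate 2 in 6 of 6 groups.

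RPL7, a large subunit protein, shows the pattern. In SCC1 it had 1285 and 4228 CPM with PBS and 1003 and 3046 with cetuximab, replicate 1 first, in SCC6 2924 and 5676 against 1896 and 3943, and in SCC25 1483 and 4074 against 1084 and 3280. Within each number the cetuximab library was the lower, yet the groups overlapped in every line. RPS24, whose mutation causes Diamond-Blackfan anaemia, had 858 and 3142 CPM with PBS and 793 and 2339 with cetuximab in SCC1. The standard error of the RPL7 change in SCC1 was 0.77 without the block and 0.09 with it.

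Lower values in replicate 2 were led by 4 members. RPS29 had a log2 difference of -0.71 ± 0.10 (FDR 0.00115), RPS28 of -0.58 ± 0.09 (FDR 0.00150), RPL37A of -0.58 ± 0.10 (FDR 0.00216) and RPL37 of -0.56 ± 0.09 (FDR 0.00153), and these 4 were lower in replicate 2 in 6 of 6 groups. In SCC6 with PBS RPS29 had 6152 CPM in replicate 1 and 2905 in replicate 2, and in SCC1 with PBS 2164 and 1694. Of the 23 members called, 22 had the same sign in all 6 groups, and the exception was RPS27. RefSeq names 137 pseudogenes after RPL21, 61 after RPL7, 20 after RPS24 and 33 after RPS29. Over the 83 members Spearman's rho between the number of named pseudogenes and the replicate difference was 0.20, a weak relation given as a description. Whether the counting of reads shared with such copies differed between the replicates was not tested.

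**Figure D4:**
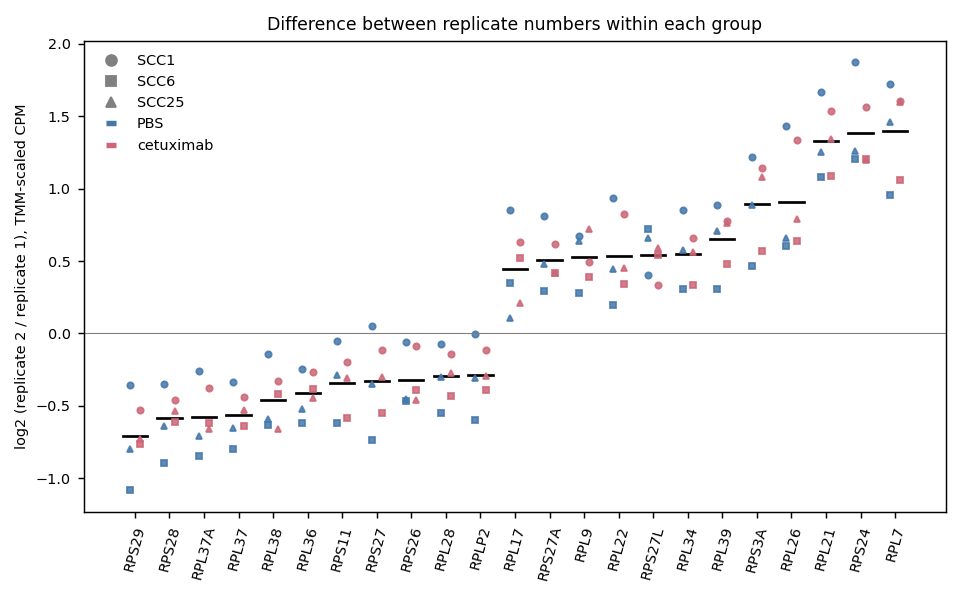
Log2 ratio of replicate 2 to replicate 1 in TMM-scaled CPM (vertical axis) for the 23 members that differed between replicate numbers, with 1 point for each line (shape) and treatment (colour) and a bar at the fitted difference. RPL7, RPS24 and RPL21 lie at 1.33 to 1.40 on average, above 0.9 in all 6 groups, and RPS29 lies at -0.71.

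In the PBS controls, also collected on day 5, the lines differed in most members, as they did in most genes. The 3 PBS groups differed for 53 of 87 members, against 59.5% of all genes, and for 81 in the blocked fit, against 78.6%. The direction was uneven. SCC6 was higher than SCC1 for 43 members and lower for 2, where 21.5% of all genes were higher and 18.6% lower, SCC25 was higher than SCC1 for 18 and lower for 3 (23.4% and 17.3% of all genes), and SCC25 was lower than SCC6 for 35 members and higher for 3, where 18.7% and 22.2% of all genes were. SCC6 had the highest mean PBS level for 68 of 82 members of at least 50 CPM, RPL7L1 not counted, SCC25 for 11 and SCC1 for 3.

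RPL39L differed most. Its mean PBS level was 14.0 ± 0.0726 CPM in SCC1, 111 ± 2.29 in SCC6 and 230 ± 62.0 in SCC25 (SD, n = 2), so that SCC25 exceeded SCC1 by 4.04 ± 0.33 and SCC6 exceeded SCC1 by 2.99 ± 0.32 on the log2 scale (FDR 1.4e-05 and 5.6e-05). RPS10, RPS19 and RPS16 of the small subunit were highest in SCC6. RPS19, the gene most often mutated in Diamond-Blackfan anaemia, stood at 2406 ± 10.2 CPM in SCC1, 11299 ± 3069 in SCC6 and 4746 ± 764 in SCC25, and each line differed from the others (FDR 6.6e-05 to 0.00764). RPS10 stood at 3451 ± 352 CPM in SCC6, and SCC1 and SCC25, at 1292 ± 149 and 1402 ± 108, did not differ beyond their spread (FDR 0.604).

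**Figure D5:**
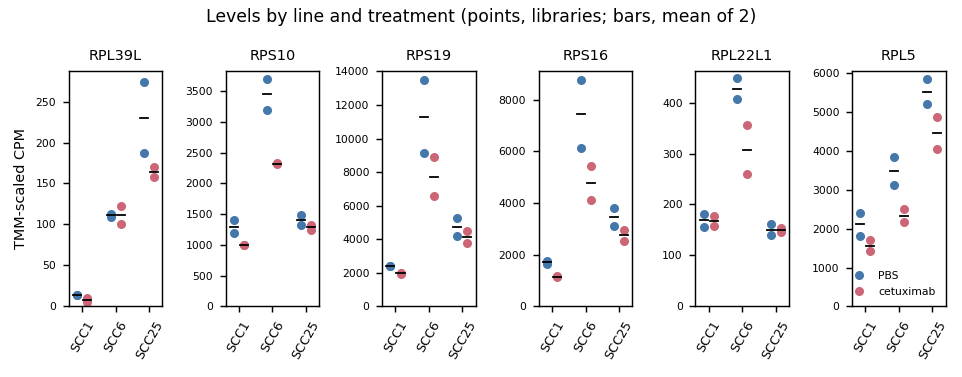
TMM-scaled CPM (vertical axes, each from 0 and scaled to its gene) of 6 members by line, with PBS libraries in blue, cetuximab libraries in red and bars at the mean of 2. RPL39L is lowest in SCC1 and highest in SCC25, RPS10, RPS19, RPS16 and RPL22L1 are highest in SCC6, and RPL5 is highest in SCC25.

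In the lists that follow, the share of all genes called lower across lines was 1.13% without the block and 5.55% with it. Of 19 other genes listed as having TOP mRNAs, mostly translation factors, 1 was called lower across lines without the block (EEF1B2, -0.43 ± 0.10, FDR 0.0418). With the block 10 were called lower, with a blocked median of -0.29, and all 19 values were negative. RefSeq starts were found for 12 of the 19, with a tract of 5 or more bases at 11 of 13 starts. NAP1L1, a histone chaperone, and HNRNPA1, a splicing factor, changed by -0.45 and -0.39 in the blocked fit (FDR 0.0178 and 0.0162). FAU, which encodes a ribosomal protein as a fusion but lies outside the symbol rule, had a change of -0.23 and passed neither fit (FDR 0.223, blocked 0.0951). Of 9 listed host genes of small nucleolar RNAs, 4 were tested and none passed in either fit across lines, where SNHG8, ZFAS1 and EPB41L4A-AS1 had changes of -0.46, -0.35 and -0.37. In SCC6 the blocked fit called these 3 lower, at -0.94, -0.64 and -0.83 (FDR 0.0137, 0.0231 and 0.0181), where 10.1% of all genes were called lower, and the fit without the block called none of them.

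Of 25 ribosome assembly genes, 1 was called without the block, FBL, the methyltransferase fibrillarin, and 5 with it, all lower. FBL fell by 0.72 ± 0.15 on the log2 scale (FDR 0.0243), from 74.6 and 107 to 42.6 and 64.1 CPM in SCC1, from 342 and 358 to 154 and 210 CPM in SCC6, and from 143.3 and 158.9 to 112 and 111 CPM in SCC25. DKC1 and NOLC1, both nucleolar, changed by -0.39 and -0.49 (FDR 0.137 and 0.0948). The blocked median of this list was -0.71 in SCC6, -0.30 in SCC1 and -0.03 in SCC25. The 80 tested proteins of the mitochondrial ribosome (MRPL and MRPS genes), which serve the separate ribosome of the mitochondrion, had a blocked median of -0.21 across lines, and 15 were called, all lower. Of 24 proliferation genes, 2 were called without the block and 19 with it, all lower. TPX2, AURKA and BUB1 stood at -0.69, -0.77 and -0.84 in the blocked fit (FDR 0.0187, 0.0188 and 0.0120).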

How the data were processed

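Single-cell libraries of SCC1, SCC6 and SCC25 with PBS or cetuximab were grouped by their labels, 2 per group. The deposited tables, 1 per line, hold raw UMI counts per gene and cell that the authors made with Cell Ranger on GRCh38, per the labels, from 10x Genomics 3′ v2 libraries. For the Cell Ranger version and the handling of multimapping reads, the entry is: not given in the sources used here. Every deposited cell was kept, no doublet caller was run, and counts of 24 repeated symbols were added.

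UMIs were summed per library and tested with edgeR 4.0.16 (quasi-likelihood, TMM scaling, default filter on low counts, FDR under 0.05), with 1 mean per group, on R 4.3.3. The across-lines value is the cetuximab term of a fit with line and treatment. Replicate numbers were judged to pair the libraries because the deviations of same-numbered PBS and cetuximab libraries correlated over all genes (0.377, 0.349 and 0.598 in SCC1, SCC6 and SCC25), so blocked values are given. The relative fit used the members' total as library size. DESeq2 1.42.0 was an alternative. The code was tested on simulated data.

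The members and gene lists were chosen with earlier results of these data known. Genes were named by rule: both genes of 8 paralog pairs, 10 fixed members, the 4 lowest and 4 highest changes per line, and the 4 smallest p in the interaction, untreated and relative tests, among members of at least 50 CPM, plus the 3 smallest p of each other list. The replicate comparison, the start windows, RPS24, RPL21, RPS3A, RPS29, RPS28, RPL37A, RPL37, RPL38, RPS3, RPS14, RPS23, RPL23A, KRT5, FAU, FDXR, DDB2, MXD1 and MXI1 were added after values were seen, as was the shared replicate term. Levels of Y-linked members are not printed.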

Additional observations from a re-analysis of the deposited data

Results flagged for a closer look

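RPS27L was singled out because both SCC1 pairs were higher with cetuximab, with a fitted log2 change of 0.20 (0.204 before rounding to 2 decimals), and both SCC25 pairs were lower, at -0.15. The interaction of line and treatment did not pass for this gene (edgeR FDR 1.00, blocked 0.423), and the direct contrast of SCC1 with SCC25 was not tested. RPS27L was also among the members that were higher in replicate 2 than in replicate 1, in 6 of 6 groups.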

How the results depend on the processing

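The members' median stayed negative in each line under every alternative run, apart from those rescaled to the members' own total. Without 1 library it ranged from -0.47 to -0.26 in SCC1, -0.65 to -0.33 in SCC6 and -0.33 to -0.18 in SCC25, the last without replicate 2 and replicate 1 of the SCC25 PBS group, and library totals gave -0.23 in SCC6. The share difference ranged from -5.22 to -3.39, -8.41 to -2.14 and -6.06 to -1.82 percentage points, and reached -6.95 in SCC1 in cells without a cycling UMI.

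Counts of called members depended far more on the fit. With the replicate block they were 15 in SCC1, 71 in SCC6 and 71 across lines, all lower. In that fit 1.99%, 10.1% and 5.55% of all genes were called lower. The block gave 81 members between untreated lines, where 78.6% of all genes were called. Relative to the ribosomal protein total it gave 8, of which 7 were higher and 1 lower, where 44.4% and 1.0% of all genes were. DESeq2 gave 1, 8 and 44 members in SCC1, SCC6 and across lines, and called 274, 1671 and 1771 of 17897 genes. Without the filter on low counts 1 of 91 members was called in SCC6 and 18 across lines, against 1233 and 1043 of 25899 genes. Library totals gave 1 member across lines, against 679 of 17897 genes. In the fit named next, 6.37% of all genes were called lower in SCC6 and 5.19% across lines. A replicate term shared by the lines, added after seeing the data, gave 12 in SCC6 and 55 across lines (0 to 35 and 5 to 42 without 1 library). Without 1 library the count across lines was 1 to 8 and in SCC6 0 to 1, between untreated lines 37 to 62, and for replicate 2 against 1 18 to 22.

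Small changes turned sign. RPS27L across lines was 0.00565 with the block, 0.00257 with TMM without the members, 0.0988 with library totals, and -0.0818 to 0.103 without 1 library. RPL36AL was 0.0107 and RPL7L1 0.0525 with library totals. In cells without a cycling UMI RPL22L1 was 0.0441 and RPL7L1 0.0385. Without 1 library RPL7L1 ranged from -0.103 to 0.0064, RPL7 in SCC1 from -1.46 to 0.652 and RPL10 in SCC6 from -0.741 to 0.0981. The cause was not tested. With 2 libraries per group and 6 residual degrees of freedom, 3 with the block, and an interaction that passed for no member, equal change in the lines was not shown.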

Other observations

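A tail of cells with little ribosomal protein mRNA was largest in SCC1 with cetuximab. With a limit of 10% of a cell's UMIs, chosen after the distribution was seen, 97 of 961 cells (10.1%, 95% exact binomial interval 8.26 to 12.2) and 112 of 1380 cells (8.12%, 6.73 to 9.68) lay below it in the 2 SCC1 cetuximab libraries, against 51 of 1263 (4.04%) and 26 of 1666 (1.56%) with PBS. In SCC6 the shares were 1.44% and 2.12% with cetuximab and 0.33% and 0.684% with PBS, and in SCC25 3.00% and 1.73% against 2.29% and 1.24%. These cells were shallow, with a median of 17972 and 18698 UMIs in the SCC1 cetuximab libraries where the median of all cells was 54864 and 51886, and their median mitochondrial share was 9.31% and 17.2% against 2.51% and 3.29%. The part of damaged cells in the tail was not tested.

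Of the genes that regulate ribosome production, few passed across lines. Of 7 MYC family genes none did in either edgeR fit. In SCC6 the fit without the block called 1, MYC, lower (-1.83 ± 0.42, edgeR FDR 0.0407, blocked 0.0173). The blocked fit called 5 there, 4 lower (MYC, MXD1, MNT and MXI1) and 1 higher (MYCL). In SCC6 233 of 17897 genes were called lower without the block, and 1810 lower and 1779 higher with it. MYC itself, a transcription factor that raises ribosomal protein expression, was lower in 6 of 6 pairs, at -0.88 ± 0.29 across lines (edgeR FDR 0.109), from 482 and 242 to 65.7 and 138 CPM in SCC6, and MYCL and MNT stood at 0.61 and -0.37. Of 14 genes of mTOR signalling, which controls TOP mRNAs, 1 was called lower across lines without the block, MLST8 (-0.50 ± 0.12, edgeR FDR 0.0449). With the block 2 were called, adding EIF4EBP1 (-0.49, blocked FDR 0.0182), and DDIT4 stood at -0.91 without the block (FDR 0.148). The share of all genes called lower across lines was 1.13% without the block and 5.55% with it.

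Of 14 p53 target genes, 3 were called higher in both fits, CDKN1A, a cell cycle inhibitor, ZMAT3 and TP53INP1, at 0.69 ± 0.14, 0.68 ± 0.16 and 1.34 ± 0.28 (edgeR FDR 0.0243, 0.0426 and 0.0243), and each was higher in 6 of 6 pairs. FDXR and DDB2, listed with them, were called lower with the block alone, at -0.43 and -0.57, so the list did not move one way. Across lines 453 of 17897 genes were called higher without the block, and 1079 higher and 994 lower with it. Of 8 squamous and epithelial markers 1 was called, KRT17, higher by 1.25 ± 0.22 in 6 of 6 pairs (edgeR FDR 0.0149). KRT14 and CDH1 stood at 0.60 and 0.47, but their direction differed between the lines. KRT14 changed by 0.80 in SCC1, 1.57 in SCC6, where it was nearly absent, and -0.41 in SCC25, all without the block. In the same fit CDH1 changed by 0.61, -0.06 and 0.86.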
